A study of Drosophila melanogaster with 24 samples.

Results

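CHES-1-like loss was added to jumu loss in the embryonic mesoderm of Drosophila melanogaster, and every gene was compared between 4 double loss-of-function samples and 4 jumu loss-of-function samples. These 8 samples, chosen by genotype from the 24 of the series, hold no wild-type cells. The double loss-of-function embryos carried the deficiency Df(1)CHES-1-like1 on the X chromosome and Df(3R)Exel6157, which removes jumu, on both homologues of chromosome 3, of which one also bore twi-GAL4 and the other UAS-2EGFP. The jumu loss-of-function embryos had the same pair of chromosomes 3, with Df(3R)Exel6157 recombined onto the twi-GAL4 and the UAS-2EGFP chromosome, and no X-chromosome deficiency. For reference, the same X-chromosome deficiency was also measured with jumu intact, in CHES-1-like loss-of-function embryos (Df(1)CHES-1-like1 with 1 copy of a twi-GAL4 UAS-2EGFP chromosome) and in wild-type embryos (the same twi-GAL4 UAS-2EGFP chromosome alone, over +), 4 samples of each. In all 4 genotypes twi-GAL4 drove GFP in cells that express Twist, GFP-positive cells were sorted from stage 11 to early stage 12 embryos kept at 25 °C, and total RNA was sequenced in 4 biological replicates per genotype. The balanced cross behind the jumu loss-of-function embryos is described by the study, and the cross behind the double is not, so whole X chromosomes, and any difference in strain background, cannot be told apart from the loss of CHES-1-like itself.

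Forkhead box (Fox) proteins are transcription factors that bind DNA through a winged-helix domain. CHES-1-like is related to the vertebrate checkpoint suppressors FOXN2 and FOXN3, and jumu, another Fox gene, is required in flies for the specification and division of cardiac progenitors. The pair is known to act partly redundantly on the FGF receptor gene htl and the Wnt receptor gene fz in the heart-forming mesoderm, which makes the double mutant the genotype in which the remaining contribution of CHES-1-like can be read.

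CHES-1-like reads were nearly absent from the double. The gene (X chromosome, 7682338 to 7709385, minus strand, release 6 assembly) had 0.758, 3.06, 0.884 and 0.621 CPM (counts relative to library size, scaled by TMM factors) in the 4 double loss-of-function samples, against 151, 139, 135 and 142 CPM in the 4 jumu loss-of-function samples. The groups were far apart, and replicate 2 of the double held the most residual reads. Mean levels were 1.33 ± 1.16 CPM in the double and 142 ± 6.75 CPM in jumu loss (SD, n = 4 each), so that 0.939% of the jumu-loss level remained. The log2 fold change was -6.93 (SE 0.39; edgeR quasi-likelihood test, Benjamini-Hochberg adjusted p = 1.09e-06), and a two-sided exact permutation test of the 8 values gave p = 0.0286, the smallest that 70 divisions of 8 samples allow. The gene overlaps 2 genes of the opposite strand. With jumu intact, the fall was of the same size: 1.13 CPM in CHES-1-like loss against 153 CPM in wild-type, a log2 fold change of -7.39.

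The nearest 3 kept genes on each side of CHES-1-like were not called. The nearest kept genes on one side were CG42780 (log2 fold change -0.24), CBP, which encodes a calcium-binding protein (0.23), and the homeobox gene ct (-0.33). On the other side stood the histone chaperone gene Hira (-0.11), NELF-B, a subunit of the negative elongation factor (0.27), and CG12155 (0.23). The homeobox gene ct had 97.6, 178, 98.2 and 101 CPM in the double, against 166, 138, 150 and 144 CPM in jumu loss, so that replicate 2 of the double lay above every jumu-loss sample and the other 3 below every one. Without that replicate ct passed the test at -0.59. Scaling by library totals turned CG42780 (0.25), ct (0.13) and Hira (0.39) positive, without a call. Of 18 kept genes that start within 0.2 Mb of the start of CHES-1-like, 2 were called, against 12.9% of kept X-linked genes. Their log2 fold changes ran from -0.88 to 1.09 over the 18 genes. CG42780 and CBP lie outside this window.

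The jumu gene was low in both groups, but its reads were not at 0. It had 26.1, 21.2, 24.9 and 25.1 CPM in the double, against 30, 33.1, 35.2 and 34.1 CPM in jumu loss. Every double sample lay below every jumu-loss sample (24.3 ± 2.16 against 33.1 ± 2.25 CPM, SD, n = 4 each), with a log2 fold change of -0.44 (adjusted p = 0.0135, edgeR) that missed the fold threshold and became 0.05 with library totals. In the 16-sample fit the means were 21.4 CPM in the double, 29.6 CPM in jumu loss, 100 CPM in CHES-1-like loss and 120 CPM in wild-type. Each gene was thus lowest in the genotypes labelled as lacking it, CHES-1-like more completely than jumu.

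The libraries of the 2 genotypes differed in makeup. Totals ranged over 20467600 to 56547000 counts in the double and 16513200 to 70847800 counts in jumu loss, with every pair of replicates further apart than counting noise. Protein-coding genes took 56.5 to 58.3% of counts in the double and 38.8 to 42.2% in jumu loss. Nuclear rRNA pseudogenes took 11.3 to 12.5% in the double and 18.4 to 19.0% in jumu loss, whereas genes annotated as rRNA, most of whose counts are from the mitochondrial genome, took 6.40 to 8.94% in the double and 4.88 to 5.32% in jumu loss. Genes of the mitochondrial genome took 8.51 to 12.5% in the double and 6.39 to 7.20% in jumu loss. Replicate 2 of the double stood apart from the other 3, also in its snoRNA share (0.741% against 1.39 to 1.56%), and results that rest on it are given without it. TMM scaling set the median log2 fold change of all kept genes at 0.02, whereas scaling by library totals moved it to 0.52, so that changes are stated relative to the typical gene. Whether these library differences contributed to any single result was not tested.

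The sorted cells carried mesodermal transcripts in both genotypes, and the group means of Mef2, twi and tin were similar. The myogenic factor gene Mef2 averaged 534 ± 124 CPM in the double and 512 ± 38.8 CPM in jumu loss, twi 26.8 ± 3.75 and 26.3 ± 0.902 CPM, and the cardiac gene tin 15.5 ± 3.79 and 17.6 ± 1.12 CPM (SD, n = 4 each). Transcripts of other cell types were present as well: elav, a neuronal marker, averaged 227 ± 108 CPM in the double and 227 ± 21.5 CPM in jumu loss, and the epidermal cadherin gene shg 210 ± 28.9 and 203 ± 14.9 CPM. The 24 neural markers summed to 803 to 1168 CPM in the double and 882 to 1027 CPM in jumu loss, the 22 epidermal markers to 1287 to 1974 and 1450 to 1626 CPM, and the 12 endoderm markers to 457 to 559 and 530 to 579 CPM, the highest sum of the double being that of replicate 2 each time. None of these lists had a marker at 0 in all 8 samples. Replicates 1, 3 and 4 of the double had sums below every jumu-loss sample in each list. They were 803, 813 and 811 CPM for neural, 1336, 1297 and 1287 CPM for epidermal, and 457, 473 and 470 CPM for endoderm markers. A list of early mesoderm genes summed to 1538, 1502 and 1489.5 CPM in the same replicates, against at least 1638 CPM in jumu loss. Mef2 had 484, 472 and 461 CPM there, and 719 CPM in replicate 2. In sorted bulk RNA, fewer cells of a type and less RNA per cell cannot be told apart.

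A gene is called where its adjusted p was below 0.1 and its absolute log2 fold change above 0.5, criteria referred to as relaxed. Between double and jumu loss, 1152 of 12234 kept genes (9.42%) were called. Of these, 458 were higher in the double (3.74% of kept genes) and 694 were lower (5.67%). The stringent fold threshold of 1 was passed by 571 genes (4.67%), 218 higher and 353 lower. Samples of the 2 genotypes did not overlap for 2770 kept genes (22.6%), and for 1037 of the 1152 called genes. Called genes were often weakly expressed: 227 of the 571 stringent genes stayed below 1 CPM in both groups, and 117 were separated between groups and reached 5 CPM in the higher one. Without replicate 2 of the double the relaxed count was 1611 (664 higher, 947 lower), and without replicate 3 of jumu loss it was 750 (295 higher, 455 lower).

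Among genes with separated groups and at least 5 CPM in the higher one, the largest rises were of genes with little or no reads in jumu loss. CCHa1-R, which encodes a receptor for the neuropeptide CCHamide-1, had 30.6, 30.3, 22.1 and 24.3 CPM in the double, against 0.0226, 0.0701, 0.0674 and 0.247 CPM in jumu loss. All 4 double samples were far above all 4 jumu-loss samples, with a log2 fold change of 7.95 (SE 0.32, adjusted p = 8.63e-08). CG11697 (7.81) and CG14205 (7.67), both on the X chromosome and of roles not given here, followed. Frq2, a frequenin-type neuronal calcium sensor gene, had 16.3, 26.4, 16.1 and 17.3 CPM in the double, against 0.317, 0.280, 0.371 and 0.471 CPM in jumu loss (log2 fold change 5.65, SE 0.23, adjusted p = 8.63e-08). The groups did not overlap, and replicate 2 of the double was the highest sample. The leucine-rich-repeat gene kek4 (5.29), the cyclic nucleotide-gated channel-like gene Cngl (5.15) and the cytochrome P450 gene Cyp4p2 (5.04) rose as well. Ret, which encodes a receptor tyrosine kinase, had 12.7, 12.0, 14.8 and 14.3 CPM in the double, against 1.11, 0.911, 0.573 and 1.26 CPM in jumu loss (log2 fold change 3.82, SE 0.21, adjusted p = 8.96e-07). Each of these 8 rises kept its call when any single sample was left out.

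Under the same limit of 5 CPM, the largest falls were of genes low in the double, and larger changes of weaker genes are given with the X-linked genes below. Pp1-13C, an X-linked gene for a protein phosphatase 1 catalytic subunit, had 0, 0, 1 and 0 counts in the double, against 341, 75, 400 and 287 counts in jumu loss (6.54 ± 1.01 CPM, SD, n = 4; adjusted p = 8.26e-08). CG32564, also X-linked, had 2, 0, 2 and 5 counts in the double, against 264, 93, 401 and 350 counts in jumu loss (adjusted p = 1.06e-07). Reads of both genes were thus all but confined to jumu loss among the 8 samples. The radish gene rad, which is known for its role in memory, had 1.59, 1.89, 1.65 and 1.62 CPM in the double, against 28.6, 26.1, 29.5 and 27.6 CPM in jumu loss (log2 fold change -4.06, SE 0.10, adjusted p = 2.8e-09). The fatty acid synthase gene FASN3 fell by 3.97 on the log2 scale (2.72 ± 0.402 CPM in the double, 43.4 ± 4.41 CPM in jumu loss) and CG31601 gave -4.54 (0.381 ± 0.353 and 7.71 ± 0.813 CPM, SD, n = 4 each). Among noncoding loci, CR40502 fell by 4.04 and the 18S rRNA pseudogene 18SrRNA-Psi:CR41602 by 3.16. As with the rises, these calls were kept in each fit without a sample, and rad overlaps 7 other genes, so that its reads may be shared with them.

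**Figure D1:**
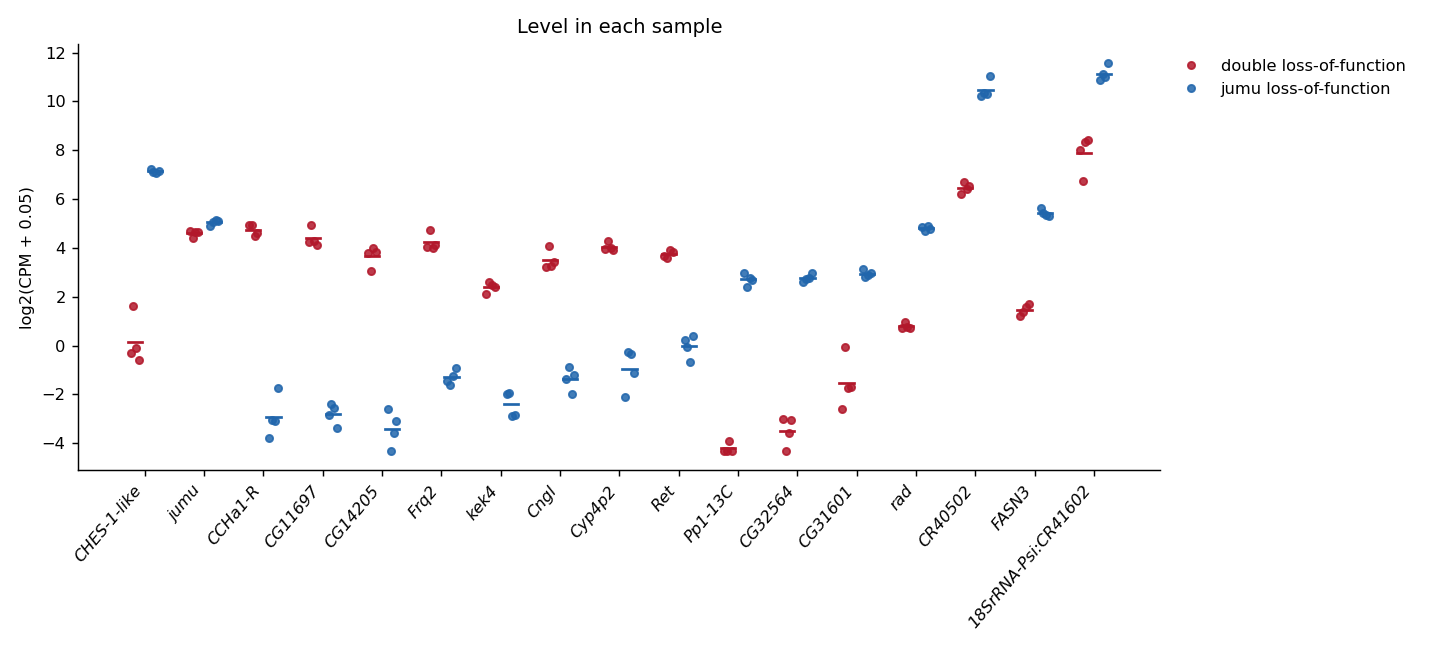
Level of CHES-1-like, jumu and the genes with the largest rises and falls in each sample, as log2 of CPM plus 0.05 (vertical axis); red points are double loss-of-function samples, blue points jumu loss-of-function samples, 4 each, and short lines are means. Only jumu differed by less than 1 on the log2 scale, and the red and blue points of every gene shown are separate.

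Ranked by the difference in CPM, 4 histone genes led the rises, and noncoding loci and rRNA pseudogenes led the falls. His2B:CG33908, one of the near-identical histone H2B copies among which reads cannot be assigned with certainty, had 1573, 2723, 1538 and 1536 CPM in the double, against 1284, 1222, 1264 and 1220 CPM in jumu loss (log2 fold change 0.56, adjusted p = 0.08). The groups did not overlap, but replicate 2 of the double stood alone. Without it the 3 named H2B copies gave 0.29 to 0.31 and were no longer called. His1:CG31617, a linker histone copy, had 1010, 995, 1041 and 991 CPM in the double, against 671, 703, 740 and 737 CPM in jumu loss (0.50, adjusted p = 0.00295), a call lost in 3 of the 8 fits without a sample. In all 4 of 111 kept histone genes rose, a share close to the 3.74% of all kept genes. Among the falls, CR40668, a noncoding locus without a position in the annotation used here, averaged 28308 ± 7305 CPM in the double and 87102 ± 7475 CPM in jumu loss (SD, n = 4 each), a log2 fold change of -1.62. CR41583 (-1.38), 28SrRNA-Psi:CR45859 (-1.87) and 28SrRNA-Psi:CR45855 (-1.49) fell with it, and 13 of 17 kept rRNA pseudogenes were called lower (median -1.28, against 5.67% of all kept genes). Of 99 other nuclear rRNA genes 2 were lower, around a median of 0.21. rRNA pseudogenes share reads with one another, so that single loci are uncertain, and their share of each library is given above.

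The X chromosome held a larger share of called genes than the 4 major autosome arms, though not than chromosome 4 (14 of 100 kept genes). Of its 1918 kept genes, 80 were higher and 167 lower in the double, 12.9% in all, against 8.34% of the 9914 kept genes on the major autosome arms (359 higher, 468 lower). The median log2 fold change of the X was -0.03, against 0.01 to 0.06 on the 4 major autosome arms. Whether the chromosome as a whole was shifted was not tested. The excess was on the side of falls: 8.71% of X-linked genes were lower, against 4.72% on the autosome arms, and 4.17% and 3.62% were higher. Calls were not concentrated at the CHES-1-like locus. By distance from it, 10.7% of kept genes were called within 1 Mb, and, towards the higher coordinates, 14.3% at 1 to 4 Mb, 16.2% at 4 to 8 Mb, 10.9% at 8 to 12 Mb and 26.8% at 12 to 16 Mb. Towards the lower coordinates 8.40% were called at 1 to 4 Mb and 8.28% at 4 to 8 Mb, so that the share did not change steadily with distance. The 4 to 8 Mb stretch on that side had 0 higher and 28 lower genes, and the 1 to 4 Mb stretch 4 higher and 16 lower. With library totals 744 X-linked genes were higher and 93 lower, and without replicate 2 of the double 122 were higher and 211 lower.

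**Figure D2:**
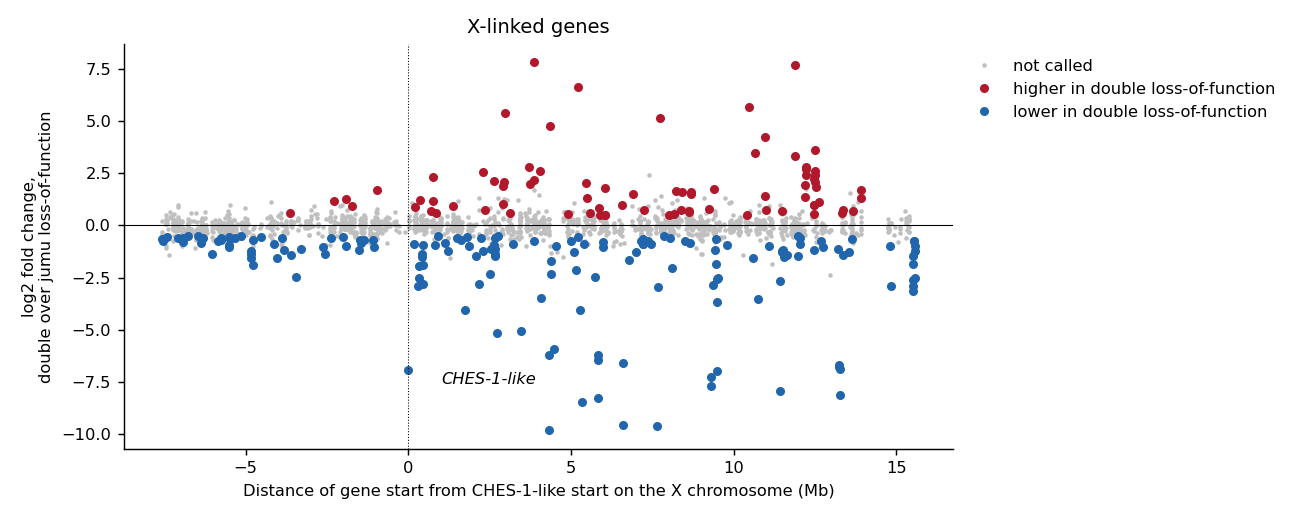
Log2 fold change of double over jumu loss-of-function (vertical axis) for each kept X-linked gene against its distance in Mb from the start of CHES-1-like (horizontal axis); red points were called higher, blue points lower, grey points not called. The 167 lower genes lie along the whole chromosome. Of the 80 higher genes, 0 lie at -8 to -4 Mb, where 28 of 338 kept genes were lower. The highest share called, 26.8%, is at 12 to 16 Mb.

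Genes nearly without reads in the double also gathered on the X. There were 54 called genes with at most 3 counts in every sample of one group, 37 of them lower and 17 higher in the double. Of the 37, 25 were X-linked, against 4 of the 17. For comparison, the X held 1918 of the 12234 kept genes, 167 of the 694 called lower and 80 of the 458 called higher. The P450 gene Cyp318a1 had 0 counts in each double sample, against 97, 35, 177 and 132 counts in jumu loss. Likewise, CR44963 had 0 counts throughout in the double, against 107, 26, 107 and 124 counts in jumu loss, and the cuticle protein gene Cpr12A 0 counts, against 46, 9, 44 and 51 counts. Of these 25 genes, 24 averaged at most 0.1 CPM in CHES-1-like loss, and 19 did so in wild-type as well. Exceptions were CG15882, with 0.0241 CPM in CHES-1-like loss and 0.681 CPM in wild-type, Pp1-13C (1.47 CPM in wild-type) and CG1924 (0.434 CPM in CHES-1-like loss). The reverse pattern was seen for mthl12, a methuselah-like receptor gene on 3R with 79, 59, 165 and 230 counts in the double, against 0, 0, 1 and 0 counts in jumu loss.

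Chromosome 4 and the Y chromosome departed in opposite directions. Of 100 kept genes on chromosome 4, 13 were higher and 1 lower, and the median log2 fold change was 0.22. In CHES-1-like loss against wild-type, 0 of 102 kept genes on chromosome 4 were higher and 10 lower, with a median of -0.03. The TGF-beta ligand gene mav had 79.6, 144, 79.0 and 79.5 CPM in the double, against 65.6, 48.5, 56.2 and 56.7 CPM in jumu loss (log2 fold change 0.75, adjusted p = 0.0352), and CG32850 averaged 265 ± 96.8 and 164 ± 6.43 CPM (SD, n = 4 each; 0.69, adjusted p = 0.0522). For both genes replicate 2 of the double was the outlying sample, and without it they gave 0.48 and 0.40 and were not called. The call of mav was lost in 4 and that of CG32850 in 5 of the 8 fits without a sample, mostly fits without a jumu-loss sample. The count of rises on chromosome 4 was 10 without that replicate and 5 without replicate 3 of jumu loss. Of 35 kept Y-linked genes, 7 were lower, with a median of -0.84, and 28 of 43 Y-linked genes kept in the comparison of CHES-1-like loss with wild-type were lower there. The share of male embryos behind each sample is not given, and its part in these values was not tested.

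Near jumu itself, 3 genes of 3R, named after their values were seen, differed between the genotypes although both carry Df(3R)Exel6157. Bruce (3R, 10312039 to 10331353), a ubiquitin-conjugating inhibitor of apoptosis, had 2271, 2219, 2335 and 2333 CPM in the double, against 3802, 3937, 3894 and 4020 CPM in jumu loss (log2 fold change -0.77, SE 0.09, adjusted p = 0.000227). The groups did not overlap, and both were far above the 306 CPM of CHES-1-like loss and the 325 CPM of wild-type. Its neighbour CG6293 (3R, 10307806 to 10311613) had 20.9, 22.7, 20.5 and 20.4 CPM in the double, against 10.4, 11.1, 9.23 and 9.38 CPM in jumu loss, a rise of 1.08 (adjusted p = 3.59e-05). The winged-helix factor gene Rfx, which lies next to jumu, had 0.152, 0.315, 0.367 and 0.231 CPM in the double, against 0.385, 0.421, 0.657 and 1.12 CPM in jumu loss, and its call (-1.29, adjusted p = 0.0959) was lost in 6 of the 8 fits without a sample.

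Over the 19 gene lists 32 of 354 distinct kept members were called (9.04%), a share close to the 9.42% of all kept genes. This pooled share does not describe any single list, and no list was tested as a set. The counts below stand beside 3.74% called higher and 5.67% called lower among all kept genes. Among 15 kept Fox genes only CHES-1-like passed. In the double, bin, the Fox gene of the visceral mesoderm, averaged 26.2 ± 1.91 CPM, against 22.5 ± 1.10 CPM in jumu loss, and fkh 22.7 ± 7.05 against 22.3 ± 1.51 CPM (SD, n = 4 each), neither called. The known Fox targets htl and fz were not called either. The htl gene had 110, 105, 113 and 112 CPM in the double, against 90.5, 97.0, 94.4 and 99.5 CPM in jumu loss, so that the groups did not overlap, but the log2 fold change was 0.20 (adjusted p = 0.12). The fz gene had 124, 145, 123 and 125 CPM in the double, against 124, 127, 128 and 127 CPM in jumu loss (0.03, adjusted p = 0.917, and -0.03 without replicate 2 of the double).

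In the cardiac specification list, 2 of 24 members rose and 1 fell, against 3.74% and 5.67% of all kept genes. The list median was -0.05, against a median of 0.02 over all kept genes. Hand, a basic helix-loop-helix gene of the heart, had 10.9, 13.6, 8.64 and 9.24 CPM in the double, against 6.95, 7.78, 6.91 and 5.61 CPM in jumu loss (0.64, adjusted p = 0.032). The groups were apart, although the call was lost without replicate 4 of jumu loss. The T-box gene H15 (0.839 ± 0.425 and 0.319 ± 0.0945 CPM, SD, n = 4 each; 1.29, adjusted p = 0.0769) was called from low counts that overlapped between groups, and its call was lost in 6 of the 8 fits without a sample. The zinc finger homeobox gene zfh1, which acts in heart, gonadal and muscle mesoderm, had 110, 183, 113 and 115 CPM in the double, against 253, 206, 223 and 213 CPM in jumu loss, a fall of 0.78 on the log2 scale (SE 0.16, adjusted p = 0.0111). Replicate 2 of the double came closest to the jumu-loss range, and without it the log2 fold change was -0.99. The T-box genes Doc2 (-0.43) and Doc3 (-0.40) had adjusted p of 0.0443 and 0.0234 and missed the fold threshold, and tin gave -0.17.

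Other mesodermal lists showed isolated calls. In the early mesoderm list of 16 genes, zfh1 alone was called, with a list median of -0.03. In the visceral mesoderm list of 13 genes, abd-A, a Hox gene of the midgut and abdomen, fell by 0.53 on the log2 scale (58.2 ± 8.36 CPM in the double, 83.9 ± 5.53 CPM in jumu loss, SD, n = 4 each), and HLH54F, a factor of the longitudinal visceral muscle founders, gave -0.46 below the fold threshold. Of 17 founder identity genes, vg, a wing and muscle selector gene, rose by 0.59 (10.2 ± 2.12 and 6.71 ± 0.44 CPM, SD, n = 4 each). The call of vg was lost without replicate 2 of the double, where it gave 0.45, and the calls of abd-A and vg were each lost in 3 of the 8 fits without a sample.

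Of 21 genes of myoblast fusion, 1 was called. The adaptor gene rols fell by 0.51 on the log2 scale (96.0 ± 19.1 CPM in the double, 136 ± 8.33 CPM in jumu loss, SD, n = 4 each), a call lost in 5 of the 8 fits without a sample. The adhesion gene sns averaged 488 ± 15.6 and 675 ± 12.5 CPM (-0.47, adjusted p = 0.00328) and mbc, an activator of Rac, 381 ± 19.6 and 504 ± 11.9 CPM (-0.40, adjusted p = 0.00976), both separated between groups without reaching the threshold. The list median was 0.05.

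Of 25 myofibril genes, 3 rose and 2 fell, with a median of -0.02. The myosin light chain gene Mlc2 had 62.0, 80.1, 56.3 and 55.2 CPM in the double, against 37.1, 40.2, 39.5 and 37.9 CPM in jumu loss (0.71, SE 0.12, adjusted p = 0.00325), and Mlc1 rose with it (0.50). The Z-disc gene Zasp66 (0.696 ± 0.120 and 0.326 ± 0.0718 CPM, SD, n = 4 each; 1.13) rose from low counts, with a call lost in 4 of the 8 fits without a sample, whereas the Z-disc gene Zasp52 fell by 0.57. The nesprin gene Msp300, which anchors muscle nuclei, had 151, 176, 149 and 150 CPM in the double, against 240, 230, 243 and 232 CPM in jumu loss, a fall of 0.59 on the log2 scale (SE 0.08, adjusted p = 0.00119). All 4 double samples of Mlc2 were above, and all 4 of Msp300 below, those of jumu loss.

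Cell-division genes showed little net change. Of 53 mitosis genes 1 rose and 1 fell (median 0.03), and of 36 S-phase genes 2 fell (median 0.09). The securin gene pim rose by 0.56 (9.02, 13.8, 7.78 and 8.89 CPM in the double, against 7.20, 6.73, 6.33 and 6.33 CPM in jumu loss; adjusted p = 0.0698), but its call was lost in 6 of the 8 fits without a sample, among them that without replicate 2 of the double (0.37). The spindle assembly gene mars fell by 0.58 (11.3 ± 0.748 and 16.9 ± 0.355 CPM, SD, n = 4 each; adjusted p = 0.00202). The X-linked replication genes Psf3, a subunit of the GINS complex (-0.58), and Caf1-180, a subunit of chromatin assembly factor 1 (-0.51), fell. The groups of Caf1-180 overlapped, at 32.0 CPM in replicate 2 of the double and 31.1 CPM in replicate 3 of jumu loss. The call of Caf1-180 was lost in 6 of the 8 fits without a sample.

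The mitotic kinase gene polo had 220, 249, 212 and 211 CPM in the double, against 191, 189, 185 and 188 CPM in jumu loss. The groups did not overlap, but the difference stayed below the fold threshold (0.25, adjusted p = 0.0964), as for Cdk1 (0.43, adjusted p = 0.00422) and CycA (0.31, adjusted p = 0.0402). Of the 21 cell-division genes the study examined, a list it chose on the same jumu loss-of-function samples and therefore no independent evidence of direction, pim alone was called, and the median was -0.07. Rx, a homeobox gene of that list, had 0.531, 0.045, 0.567 and 0.736 CPM in the double, against 1.11, 0.631, 0.825 and 0.897 CPM in jumu loss, overlapping between groups (-0.79, adjusted p = 0.338).

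Basement membrane genes leaned downwards together but by less than the fold threshold. Of 20 genes 17 had negative log2 fold changes, 8 had an adjusted p below 0.1, and 1 was called, with a list median of -0.30 that became 0.21 with library totals, where the median of all genes was 0.52. Summed over the list, the double had 10699 to 11828 CPM and jumu loss 14059 to 14611 CPM, without overlap. The laminin gene LanA averaged 2969 ± 97.3 CPM in the double and 3755 ± 39.5 CPM in jumu loss (-0.34), the papilin gene Ppn 4684 ± 310 and 6052 ± 139 CPM (-0.37), the collagen IV gene Cg25C 353 ± 42.4 and 491 ± 21.1 CPM (-0.48), and the perlecan gene trol 63.8 ± 4.40 and 85.2 ± 2.44 CPM (-0.42; SD, n = 4 each). The peroxidasin gene Pxn, whose product crosslinks collagen IV, had 244, 174, 256 and 253 CPM in the double, against 345, 375, 356 and 352 CPM in jumu loss, a fall of 0.62 on the log2 scale (SE 0.12, adjusted p = 0.00841). Replicate 2 of the double was its lowest sample, and without it Pxn gave -0.51 and the list median was -0.22.

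Hemocytes, the blood cells of the embryo, are a main source of basement membrane in flies. Of their 19 kept markers, 13 had negative and 6 positive log2 fold changes, and 8 had an adjusted p below 0.1. Of 19 kept hemocyte genes 1 rose and 2 fell, with a median of -0.14 (7 calls without replicate 2 of the double, 2 or 3 in the other fits without a sample), and their summed level was 2436 to 2841 CPM in the double and 3040 to 3164 CPM in jumu loss. The GATA cofactor gene ush fell by 0.71 on the log2 scale (52.8, 72.3, 53.2 and 53.2 CPM in the double, against 103, 93.6, 88.0 and 94.3 CPM in jumu loss; SE 0.11, adjusted p = 0.00265), as did Pxn, which belongs to both lists. The GATA factor gene srp gave -0.30 and gcm, which sets hemocyte and glial fates, -0.46, both separated and below the threshold. The phagocytosis receptor gene eater was called higher from 13, 2, 7 and 15 counts in the double, against 1, 0, 2 and 3 counts in jumu loss, and this call was lost in 6 of the 8 fits without a sample. The scavenger receptor gene crq averaged 231 ± 13.5 and 216 ± 4.21 CPM and was not called. The part of hemocyte number in the basement membrane values was not tested.

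The epidermal list was the list with the most called members. Of 22 genes 1 rose and 6 fell, against 3.74% and 5.67% of all kept genes, with a list median of -0.13. The chitin deacetylase gene verm, which shapes the cuticle and tracheal tube, had 2.61, 2.52, 2.80 and 2.54 CPM in the double, against 8.17, 5.47, 7.29 and 7.02 CPM in jumu loss, a fall of 1.43 on the log2 scale (SE 0.14, adjusted p = 0.000103). Its neighbour and paralog serp fell by 0.90, the segment polarity gene en by 0.69, the tracheal factor gene trh by 0.64, the epidermal factor gene grh by 0.60 and the apical polarity gene crb by 0.56 (38.0 ± 0.430 CPM in the double and 56.0 ± 1.84 CPM in jumu loss, SD, n = 4 each). The protease gene rho rose by 0.55. The double and jumu-loss samples of each of these 7 genes did not overlap. The summed level of the list overlapped between the genotypes only through replicate 2 of the double, as given above, and shg was not called.

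Lower levels were also measured for 5 genes outside the fixed lists, picked after their values were seen and so no evidence about genes of their kind. The par-3 homologue baz had 315, 408, 308 and 302 CPM in the double, against 1310, 1159, 1176 and 1210 CPM in jumu loss (-1.87, SE 0.11, adjusted p = 1.98e-06). The spectraplakin gene shot averaged 354 ± 12.6 and 615 ± 21.2 CPM (-0.79), the ZO-1 homologue pyd 385 ± 41.0 and 579 ± 27.2 CPM (-0.59), the Hippo pathway gene kibra 41.6 ± 5.99 and 77.9 ± 3.83 CPM (-0.91), and the protocadherin gene ft 137 ± 14.5 and 210 ± 8.51 CPM (-0.62; SD, n = 4 each). The groups were separate for each of these genes, and each call held in all 8 fits without a sample.

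No member of the neural (24 genes, median 0.06), endoderm and gut (12 genes, -0.13) or dosage compensation (10 genes, -0.03) lists was called by the edgeR quasi-likelihood test, although in that order of lists 10, 5 and 5 had an unadjusted p below 0.05, 5, 1 and 4 had an adjusted p below 0.1, and DESeq2 called 1, 2 and 0. Without replicate 2 of the double the calls were 2, 2 and 1. Of 16 germline genes the piRNA pathway gene aub rose (0.57, 10.5 ± 0.987 and 7.08 ± 0.480 CPM, SD, n = 4 each), and 4 were called without replicate 2 of the double. Of 14 apoptosis genes grim fell (-0.58), with a call lost in 7 of the 8 fits without a sample, and the apoptosome gene Dark gave 0.43.

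Of 16 kept heat shock genes 3 rose and 1 fell (median -0.02). Hsp68 had 96.6, 98.8, 103 and 94.6 CPM in the double, against 63.4, 67.3, 68.7 and 66.4 CPM in jumu loss (0.56, SE 0.07, adjusted p = 0.000591), Hsp83, the Hsp90 gene, averaged 439 ± 32.5 and 310 ± 9.73 CPM (0.50), and the small heat shock gene Hsp27 4.65 ± 1.30 and 8.77 ± 0.545 CPM (-0.94; SD, n = 4 each). Hsp67Ba was called higher from 4, 8, 10 and 9 counts in the double, against 2, 1, 2 and 3 counts in jumu loss, and lost its call in each of the 8 fits without a sample.

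**Figure D3:**
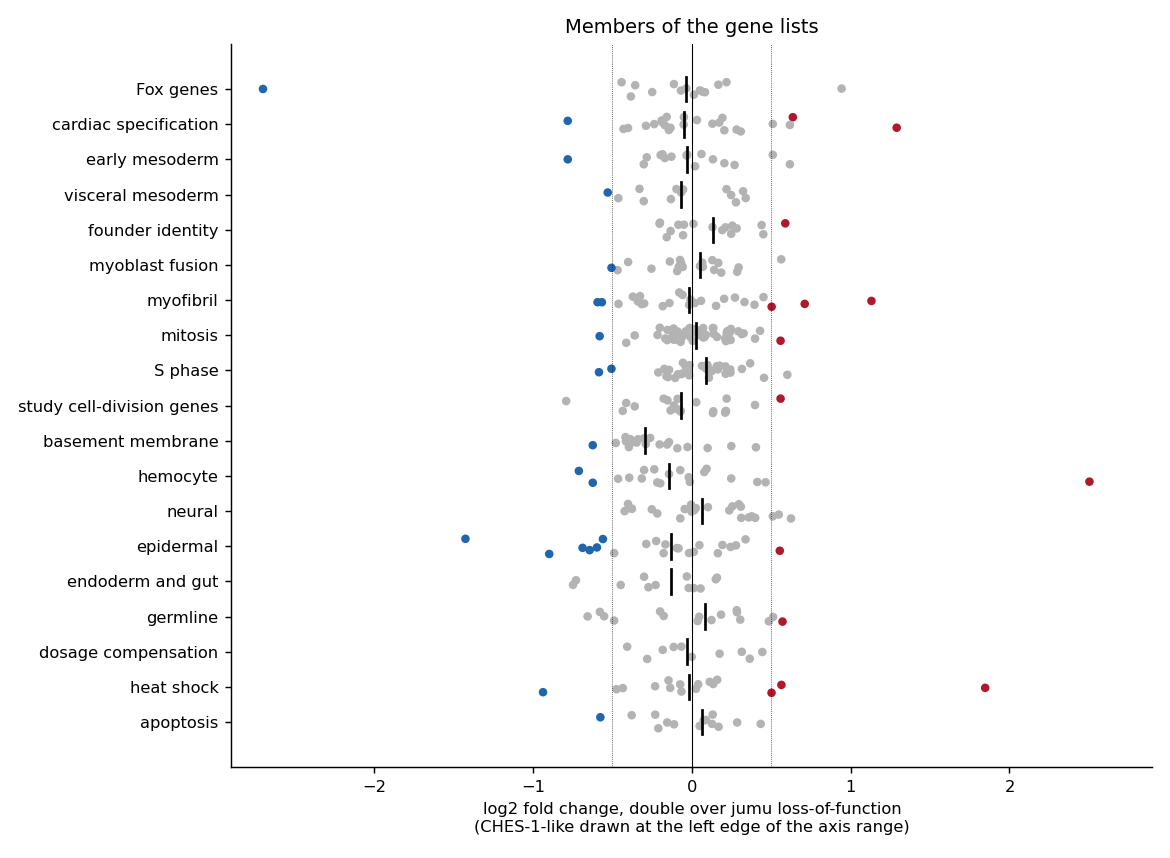
Log2 fold change of double over jumu loss-of-function (horizontal axis) for the kept members of each gene list (rows); red points were called higher, blue points lower, grey points not called, black bars are list medians and dotted lines the relaxed fold threshold of 0.5. List medians lie between -0.30 (basement membrane) and 0.13 (founder identity), and the epidermal list has the most called members, 7.

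The Osiris, P450, odorant and gustatory receptor and Cpr gene families lie outside the lists and were chosen after values were seen. Their counts are therefore no evidence about genes of these kinds. For comparison, 3.74% of all kept genes were called higher and 5.67% lower. Of 14 kept Osiris genes, a clustered family of transmembrane proteins of cuticle-forming cells, 8 were lower, with a median of -1.37, and 7 of the 8 were also called in CHES-1-like loss against wild-type. Osi7 had 2.12, 3.38, 1.60 and 1.69 CPM in the double, against 6.54, 6.87, 6.32 and 6.08 CPM in jumu loss (-1.60, SE 0.21, adjusted p = 0.000851). Of 61 kept P450 genes 14 rose and 3 fell (median 0.20), of 18 odorant receptor genes 7 fell (median -0.53), and of 28 gustatory receptor genes 3 rose and 3 fell. Among 27 kept Cpr genes, which encode cuticle proteins, 1 rose and 3 fell (median -0.44). Of 28 kept copies of Su(Ste), repeats that share reads with one another, 14 fell (median -1.14). They were 7 of the 21 copies placed on the Y, which are the 7 Y-linked falls counted above, and all 7 copies on unplaced scaffolds.

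The change that went with the CHES-1-like deficiency is called its effect here, although strain background cannot be told apart from the loss. To see whether this effect was the same with and without jumu, the difference between the 2 effects was tested over 16 samples. The interaction, double minus jumu loss less CHES-1-like loss minus wild-type, passed an adjusted p of 0.1 and an absolute value of 0.5 for 1496 kept genes (12.2%), 734 positive and 762 negative, and without replicate 2 of the double for 2029. With protein-coding totals as the base of the scaling, a setting chosen after the data were seen, 59.9% of such genes were positive, against 49.1%. CHES-1-like loss against wild-type, which shares no sample with the double and jumu loss but carries the same X-chromosome deficiency, called 1887 genes (15.4%). Both comparisons called 382 genes, which were 33.2% of those called here and 20.2% of those called with jumu intact, and 520 of the 1152 genes called here also had a called interaction.

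The X chromosome and the rest of the genome differed in how far the effects ran alike. Leaving out CHES-1-like, 107 X-linked genes were called in both comparisons, of which 82 moved in the same direction (76.6%), and 274 genes elsewhere, of which 182 did (66.4%). Over all genes kept in both comparisons, called or not, 59.4% of X-linked genes and 56.8% of the others had the same direction. Across genes, which are not independent replicates, the log2 fold changes of the X-linked genes called in both had a Pearson r of 0.66 and those of the others -0.11. Over all genes kept in both, r was 0.40 for 1864 X-linked genes and 0.06 for 9925 others. These correlations are descriptions only, since the X-linked genes share the chromosome that carries the deficiency in both comparisons.

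**Figure D4:**
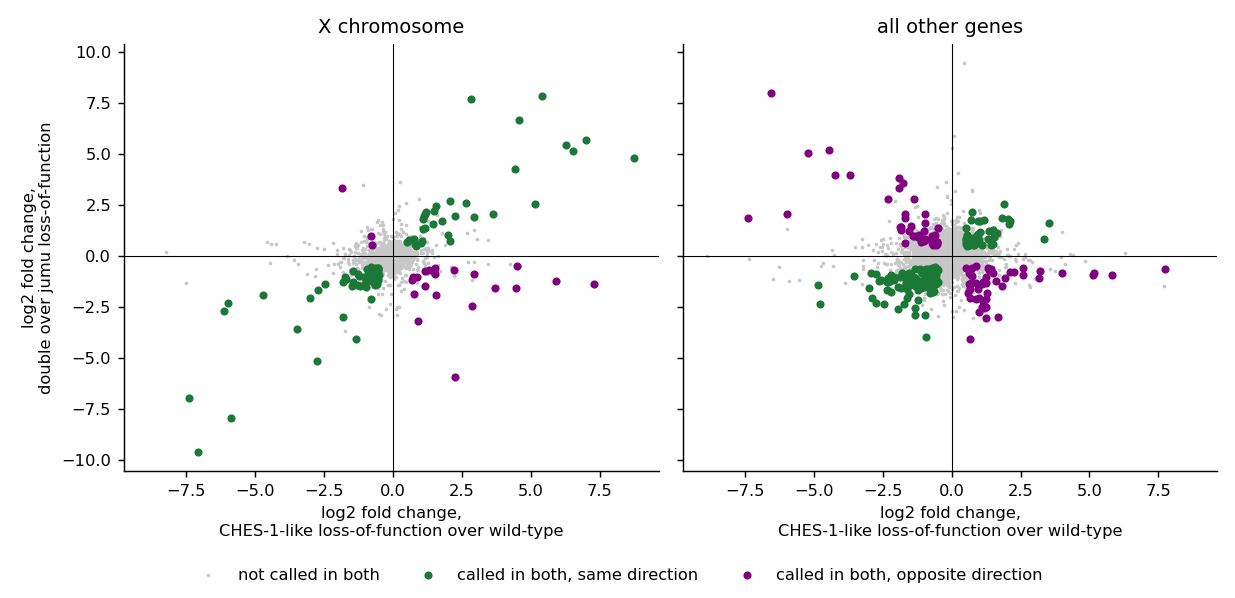
Log2 fold change of double over jumu loss-of-function (vertical axis) against that of CHES-1-like loss-of-function over wild-type (horizontal axis), for X-linked genes (left) and all other genes (right); green points were called in both comparisons in the same direction, purple points in opposite directions, grey points not in both. Of genes called in both, 82 of 107 X-linked genes and 182 of 274 others share their direction, against 59.4% and 56.8% of all genes kept in both.

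Of the 8 genes with the largest rises, the 4 X-linked genes were high wherever CHES-1-like was deleted. In the 16-sample fit CG11697 averaged 19.0 CPM in the double, 0.088 CPM in jumu loss, 19.6 CPM in CHES-1-like loss and 0.453 CPM in wild-type. For Frq2 the means were 16.8, 0.321, 13.8 and 0.0912 CPM in the same order of genotypes, and for Cngl 10.2, 0.316, 14.2 and 0.178 CPM. The autosomal genes behaved otherwise. CCHa1-R averaged 23.6 CPM in the double, 0.091 CPM in jumu loss, 0.0287 CPM in CHES-1-like loss and 2.57 CPM in wild-type, so that its 2 effects ran in opposite directions (interaction 14.50, SE 0.53, adjusted p = 2.95e-13). The size of this interaction depends on near-zero levels in jumu loss (1, 1, 4 and 11 counts) and in CHES-1-like loss. The 2 effects on Cyp4p2 also ran in opposite directions, at 14.5, 0.469, 0.201 and 9.08 CPM in the same order of genotypes (interaction 10.24). The gene kek4 averaged 4.64 CPM in the double, against 0.132 CPM in jumu loss, 0.157 CPM in CHES-1-like loss and 0.161 CPM in wild-type.

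The other large interactions came from genes whose level stood apart in a single genotype or in both genotypes with jumu loss. The neurexin-family gene axo averaged 1.44 CPM in the double, 0.404 CPM in jumu loss, 0.224 CPM in CHES-1-like loss and 42.2 CPM in wild-type (interaction 9.28), and CG33337 averaged 0.00732 CPM in the double, 0.0101 CPM in jumu loss, 0.0286 CPM in CHES-1-like loss and 17.9 CPM in wild-type. CG33337 had 2 counts in all in each of the double and jumu loss, too few for a fold change between them. Negative interactions belonged to the tachykinin neuropeptide gene Tk, at 0.0562 CPM in the double, 0.0655 CPM in jumu loss, 8.83 CPM in CHES-1-like loss and 0.0893 CPM in wild-type (-6.45), and to the C2-domain gene Mctp (1.87, 3.67, 20.2 and 0.414 CPM; -6.72). The receptor gene mthl8 was at 30.7 CPM in the double and 28.2 CPM in jumu loss, against 0.24 CPM in CHES-1-like loss, and was listed at 0 in each wild-type sample. Its interaction was fitted at -6.26, a value that depends on those near-zero levels, and mthl8 did not pass the test between double and jumu loss (0.14, adjusted p = 0.307).

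Several genes that stood high in jumu loss were lower in the double, and these were named after their values were seen. The tyrosine kinase gene Abl had 469, 873, 406 and 411 CPM in the double, against 2809, 2053, 2150 and 2199 CPM in jumu loss (-2.09, SE 0.24, adjusted p = 0.000255). Every double sample lay below every jumu-loss sample, with replicate 2 of the double the closest. In the 16-sample fit Abl averaged 476 CPM in the double, 2056 CPM in jumu loss, 445 CPM in CHES-1-like loss and 243 CPM in wild-type (interaction -2.99). The Ski-family gene Snoo averaged 32.4, 116, 34.3 and 22.8 CPM in that order (-1.82 here, interaction -2.44), and the mechanosensory matrix gene nompA 15.2, 56.1, 0.213 and 0.534 CPM (-1.86). CG34340 (24.5, 62.3, 0.191 and 0.33 CPM; -1.32) and the DEG/ENaC-type channel gene Nach (39.7, 74.2, 0.00453 and 0.0152 CPM; -0.88) were likewise near 0 in the 2 genotypes with jumu intact and lower in the double than in jumu loss.

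Of 381 genes called in both comparisons besides CHES-1-like, 264 moved in the same direction and 163 had a called interaction. Drat, Idgf2, Tango13, flw and Osi7 moved alike with and without jumu and had no called interaction. They were named after their values were seen. Drat, which encodes a protein with an alcohol dehydrogenase domain, had 135, 168, 134 and 129 CPM in the double, against 70.6, 70.7, 70.6 and 68.5 CPM in jumu loss, a rise of 1.01 (SE 0.09, adjusted p = 5.99e-05), and 138 CPM in CHES-1-like loss against 74.5 CPM in wild-type, a rise of 0.90. The chitinase-like growth factor gene Idgf2 rose by 1.24 and by 1.35, and Tango13, named for a role in Golgi organisation, by 0.82 and 0.77. The X-linked protein phosphatase 1 gene flw had 19.4, 27.6, 17.9 and 19.5 CPM in the double, against 47.2, 43.6, 46.7 and 45.8 CPM in jumu loss, and fell by 1.12 and, with jumu intact, by 0.89. Osi7 fell by 1.60 and 1.61. Their interactions lay between -0.25 and 0.10, with adjusted p of 0.378 or more, which does not show that the effects were equal.

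**Figure D5:**
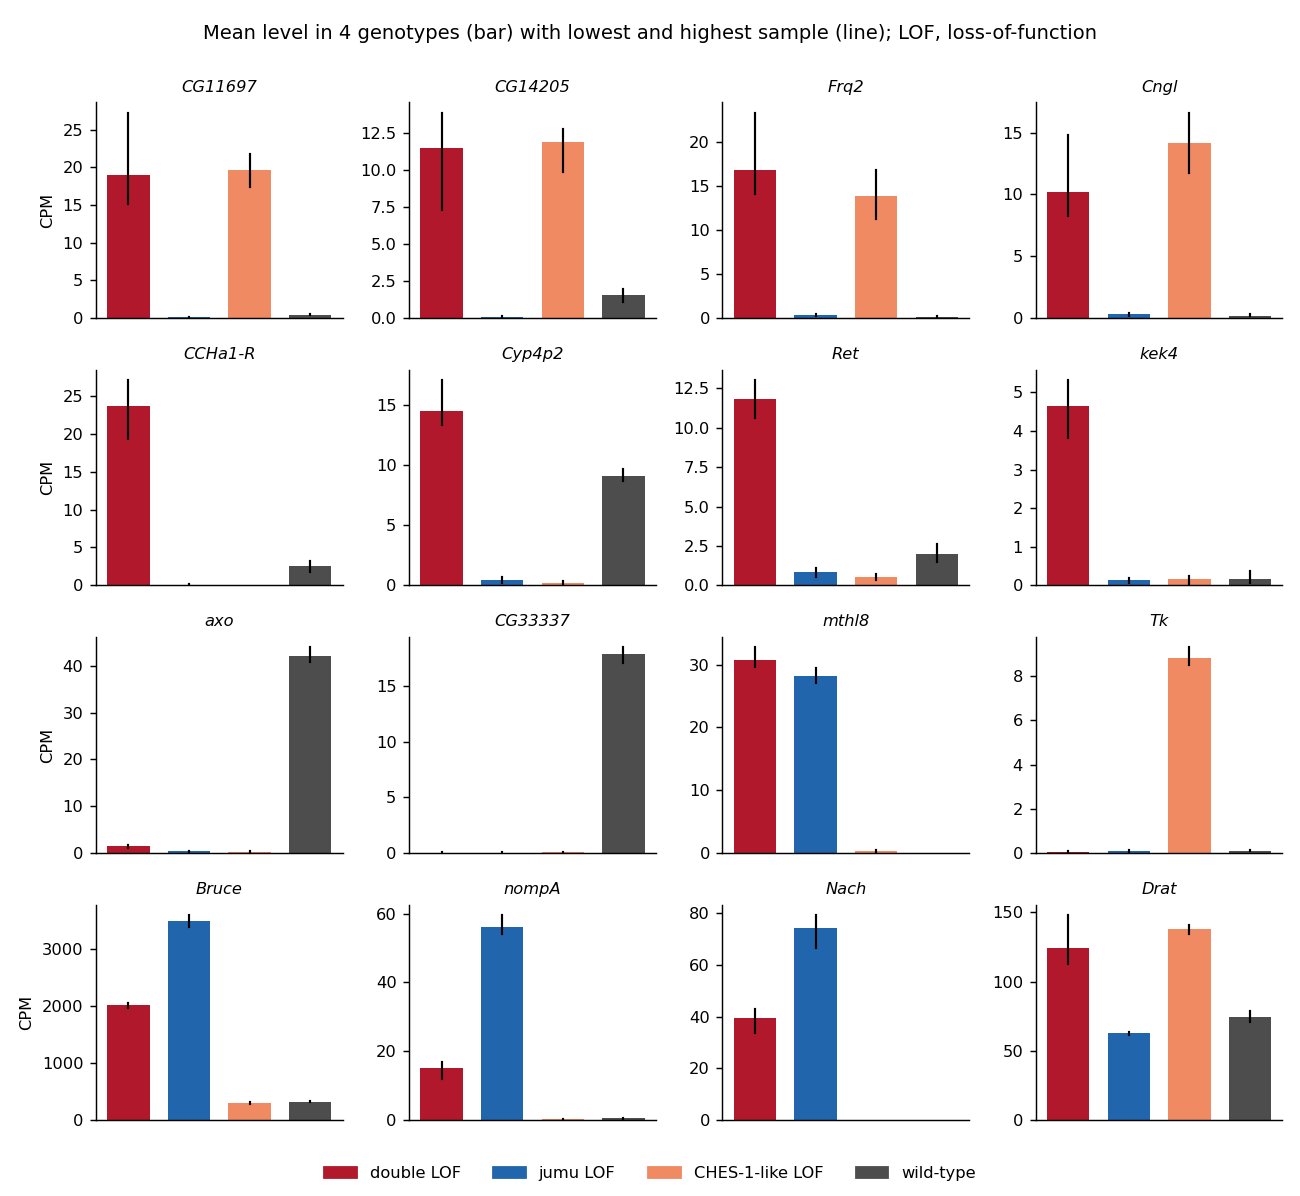
Mean level in CPM (vertical axes, each from 0) in double (red), jumu (blue) and CHES-1-like (orange) loss-of-function and wild-type (grey) samples, 4 each, for 16 genes; lines run from the lowest to the highest sample. The first row are X-linked genes high in both genotypes that carry the CHES-1-like deficiency, and Drat shows a rise of similar size in both backgrounds.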

How the data were processed

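Total RNA of sorted cells was sequenced with a stranded kit, 4 samples per genotype. The deposited values are counts per gene; the authors aligned reads with TopHat2 to the release 6 genome and annotation, and the submitters' processing notes name HTSeq and SAMtools. Whether counting used the strand is not given in the sources used here, so reads of overlapping genes may be shared. Totals ranged from 16513200 to 70847800 counts over the 8 samples, so that 3 counts corresponded to 0.0433 to 0.210 CPM, which covers counting error only. Counts of 17476 genes were scaled by TMM factors, and the 16119 genes with reads were fitted and tested with edgeR 4.0.16 (quasi-likelihood, R 4.3.3). Benjamini-Hochberg adjustment ran over all 17476 genes. The lowest 30% by average log2 CPM (5242 genes) were then set aside, leaving 12234 kept genes. Called genes had an adjusted p below 0.1 and an absolute log2 fold change above 0.5 (relaxed) or 1 (stringent). The interaction was fitted over 16 samples. The test was tried on simulated data.

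Named genes were CHES-1-like, jumu and the nearest 3 kept genes on each side, the 8 largest separated stringent rises and falls reaching 5 CPM, the 4 largest relaxed rises and falls by CPM difference, up to 3 called members of each of 19 lists, htl, fz, polo and Rx, and the 4 largest interactions in each direction. Of 84 named genes, 64 came from this rule and 20 were added after their values were seen; 40 overlap another gene and 4 have no position in the annotation used. The members and lists were chosen with earlier results of these data known. Alternatives were RLE factors, library totals, protein-coding totals (chosen after seeing the data), no filter, filterByExpr, DESeq2 1.42.0, edgeR's exact test, an adjusted p below 0.05, 1 fit of all 24 samples, the replicate block and each sample left out.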

Additional observations from a re-analysis of the deposited data

Results flagged for a closer look

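The 84 named genes gave 168 groups of 4 values in the double and in jumu loss. Only groups whose highest sample reached 1 CPM were tested, and the groups below that level were not. Of those tested, 33 had a sample that stood far from the other 3 by Dixon's test, where chance gives about 1 in 20. In 29 of these the sample was replicate 2 of the double. That replicate was above the other 3 double samples for CHES-1-like (3.06 CPM, others 0.621 to 0.884), CBP (372, others 245 to 253), ct (178, others 97.6 to 101), CG11697 (30.9, others 17.3 to 19.2), Frq2 (26.4, others 16.1 to 17.3) and Cyp4p2 (19.4, others 15.2 to 15.8). It was also above them for the histone genes His2B:CG33908 (2723 CPM, others 1536 to 1573), His2B:CG33910 (2721) and His2B:CG17949 (2696), and for 28SrRNA-Psi:CR45859 (17816). Among muscle, blood and stress genes it was high for zfh1 (183 CPM), Msp300 (176), Caf1-180 (32.0), ush (72.3) and Hsp27 (6.58), and low for Pxn (174, others 244 to 256). It was high for fz (145 CPM), Abl (873, others 406 to 469), baz (408), Snoo (53.2), pyd (446), kibra (50.5), Drat (168), Tango13 (190.0), flw (27.6), mav (144, others 79.0 to 79.6) and CG32850 (409.6, others 211 to 224). It was low for Hira (15.9 CPM, others 26.4 to 27.6) and Idgf2 (17.4, others 24.6 to 25.5). The other 4 were serp in replicate 4 of the double (3.07 CPM), and CR40502 (2096) and Drat (68.5) in replicate 4 and ft (197) in replicate 1 of jumu loss.

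The effect of CHES-1-like loss differed between the jumu-loss and jumu-intact backgrounds, by the interaction term, for 50 of the 84 named genes, against 12.2% of all kept genes. Since named genes were chosen for large changes and large interactions, that share follows from the choice. Effects of opposite sign were fitted for CCHa1-R (interaction 14.50, from 7.95 without jumu and -6.54 with it), Cyp4p2 (10.24, from 5.04 and -5.20), axo (9.28, from 1.86 and -7.41), Ret (5.72, from 3.82 and -1.91) and Mctp (-6.72, from -0.93 and 5.83). The sizes of some depend on levels near 0. CCHa1-R averaged 0.091 CPM in jumu loss and 0.0287 CPM in CHES-1-like loss. In CHES-1-like loss Cyp4p2 averaged 0.201 CPM and axo 0.224 CPM. The X-linked rises differed in size, with interactions of 2.40 for CG11697, 4.80 for CG14205, -1.37 for Frq2 and -1.37 for Cngl, and kek4 had 5.29. Of genes not called between double and jumu loss, ct had -0.65, Rx -0.94, CG33337 9.74, Tk -6.45 and mthl8 -6.26, with the last 3 near 0 counts in at least 1 genotype. Among the falls, interactions were -7.09 for CG32564, -2.71 for rad, -3.03 for FASN3, -4.72 for CR40502 and -4.07 for 18SrRNA-Psi:CR41602.

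Abundant noncoding loci had interactions of -2.30 (CR40668), -2.48 (CR41583), -2.62 (28SrRNA-Psi:CR45859) and -2.67 (28SrRNA-Psi:CR45855), and His1:CG31617 had 0.77. Among mesoderm and muscle genes the interaction was -0.84 for zfh1, 0.96 for Hand, 0.76 for vg, 1.72 for Zasp66, 0.60 for Mlc2 and -0.51 for Msp300. It was -0.69 for mars, -0.80 for Caf1-180, -0.82 for Pxn, -0.94 for ush, -1.26 for verm, -1.07 for serp, -1.65 for Hsp27, -0.96 for Hsp68 and -1.30 for grim. Near jumu it was -0.71 for Bruce and 1.44 for CG6293, and on chromosome 4 it was 0.67 for mav and 0.73 for CG32850. Of the genes named after their values were seen, further interactions were -2.99 (Abl), -2.44 (Snoo), -1.48 (baz), -0.69 (shot), -0.77 (pyd) and -0.90 (kibra).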

How the results depend on the processing

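The relaxed count stayed within 1.5 times of 1152 under RLE factors, no filter, filterByExpr, DESeq2, the exact test, an adjusted p below 0.05, the fit of all 24 samples and protein-coding totals. With library totals it was 5644 (5350 higher and 294 lower, 94.8% higher against 39.8%), the stringent count 1259, the interaction count 9755 (98.3% positive against 49.1%), and 156 list members were called against 32; the median of all genes was then 0.52, which this scaling by construction does not centre. Leaving out single samples gave 750 (without replicate 3 of jumu loss) to 1611 (without replicate 2 of the double) relaxed genes, 421 to 722 stringent genes, 1289 to 2029 interactions, 23 to 44 list members and -7.56 to -6.62 for CHES-1-like. Of 70 named genes called, 52 were called in all 8 such fits. Signs turned with library totals for jumu (0.053), CG42780 (0.25), ct (0.13), Hira (0.39) and CG33337 (0.28). They also turned without single samples: CG33337 gave 0.068, 0.039 and 0.40 without replicates 1, 2 and 4 of the double and 2.25 without replicate 1 of jumu loss; Hira gave 0.042 and fz -0.025 without replicate 2 of the double; Tk gave -0.30 without replicate 4 of the double and -0.28 without replicate 3 of jumu loss; CG42780 gave 0.033 without replicate 1 of jumu loss. Over the 8 fits without a sample CG42780 ranged from -0.39 to 0.033, Hira from -0.18 to 0.042, fz from -0.025 to 0.055, CG33337 from -2.31 to 2.25 and Tk from -0.30 to 0.43, none of them called. The cause was not tested. Same-numbered samples did not deviate together (r of -0.13, -0.06, 0.12 and 0.14), so the numbers were not taken to pair the samples; with the replicate block 943 genes were relaxed (350 higher, 593 lower), 485 stringent, 1441 had a called interaction, 27 list members were called and CG33337 gave 0.27. The filterByExpr filter removed eater and Hsp67Ba, which have no value there. Genes below a few counts per sample are limited by depth.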
